A study of Mus musculus with 2 samples.

Results

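The genes described here are 10 members of the bone morphogenetic protein (BMP) pathway in mouse lung cells isolated as fibroblasts: the ligand genes Bmp2, Bmp4 and Bmp7, the receptor gene Bmpr2, the target genes Id1, Id2 and Id3, the inhibitory Smad genes Smad6 and Smad7, and the antagonist gene Grem1. They were taken by gene symbol from the 38972 gene rows of the deposited table, and 9 of the 10 had enough reads to be measured. RNA was sequenced from 1 control library and 1 knockout library on the C57Bl/6 strain. The control mice were Foxf1fl/fl littermates, in which the gene of the forkhead factor Foxf1 is flanked by recombination sites. The knockout mice (myoFoxf1 KO) carried αSMA-Cre-ERT2 on the same Foxf1fl/fl genotype, so that Cre acts after tamoxifen in cells that use the smooth muscle actin promoter, while other cells keep Foxf1. In the protocol of the series bleomycin, which injures and scars lung tissue, went into the trachea weekly at 1 or 2 U/kg for 2, 3 or 4 weeks, tamoxifen was injected at 40 mg/kg on days 2, 3 and 4, and lungs were taken 1 week after the last bleomycin dose. The labels do not give the dose or duration used for these libraries, the age or number of mice in each, or whether the controls had tamoxifen, and bleomycin is missing from the knockout title.

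BMPs are secreted ligands that join type I and type II receptor kinases into one complex. The type I receptor then phosphorylates Smad1, Smad5 or Smad9, which enter the nucleus with Smad4 and switch on targets such as the Id genes and the inhibitory Smads, whose products damp the signal. In the lung, Bmp4 takes part in airway branching, and inherited mutations of human BMPR2 cause pulmonary arterial hypertension.

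Gene reads came to 16145959 for the control and 15122824 for the knockout. Levels are given as CPM (read counts relative to a TMM-scaled library size), and as the authors' FPKM, which also divides by gene length, where genes are set against each other. The targeted gene Foxf1 was read 158 times in the control library and 49 times in that of the knockout, at a log2 ratio of -1.27 (95% interval -1.77 to -0.81). With 1 library per genotype there is no replicate check and no p-value, and every interval below covers counting error only. The libraries differed in markers of many cell types, none of which was at 0 reads. Summed CPM of the marker lists went from 1718 to 824 for 15 fibroblast markers (8 lower, 1 higher), from 15898 to 34580 for 11 macrophage markers (7 higher, none lower), from 372 to 279 for 12 endothelial markers (6 lower, none higher), from 16871 to 5863 for 13 epithelial markers (10 lower, none higher) and from 757 to 244 for 8 mesothelial markers (8 lower). In FPKM the macrophage lysozyme gene Lyz2 was at 9887 and 17157, and the fibroblast proteoglycan gene Dcn at 228 and 89.1, so the label of isolated fibroblasts names 1 of several cell types in these libraries. The sum went from 94.6 to 72.1 CPM for 10 smooth muscle and pericyte markers (3 lower, 2 higher), with Acta2 at a log2 ratio of -0.92. It went from 437 to 169 for lymphocyte markers (4 lower, 1 higher) and from 118 to 263 for neutrophil markers (1 lower, 3 higher). For erythroid markers it went from 1989 to 738 (4 lower, none higher). In such bulk RNA, fewer cells of a type and less RNA per cell cannot be told apart.

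A gene was called when it had at least 1 CPM in either library and 20 reads over both, its ratio was at least 2-fold, and the 95% interval of the ratio excluded 1. Bmp4, Bmp7, Id1, Id3 and Smad6 were called lower in the knockout and Bmpr2 was called higher, while Bmp2, Id2 and Smad7 were not called and Grem1 had too few reads. Over all 14455 measured genes 14.2% were called lower, 9.37% higher and 23.6% in either direction, and over the 9 measured BMP genes 5 were lower and 1 higher. The median log2 ratio of these 9 was -1.76, beside 0.01 over all measured genes. With scaling by total reads alone, 3212 genes were lower and 587 higher in place of 2053 and 1355, or 22.1% and 4.05% of genes, and the BMP genes held 5 lower and none higher.

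**Figure D1:**
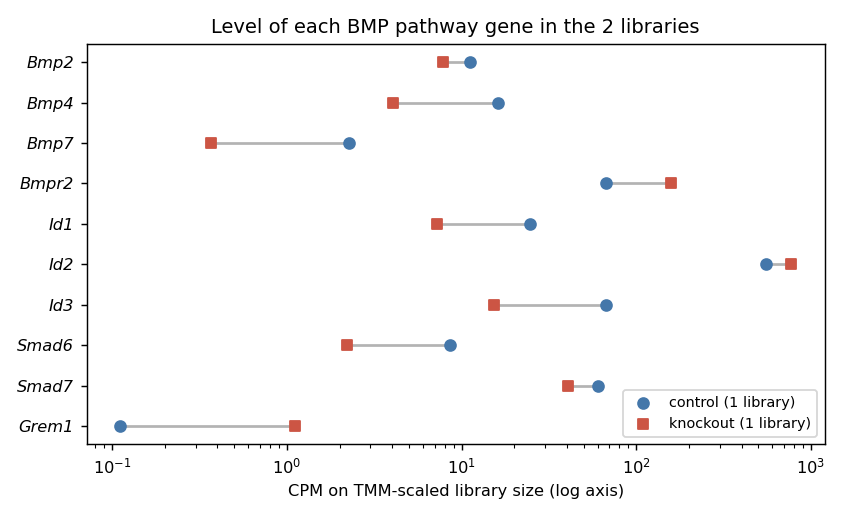
The level of each of the 10 genes in CPM on a log axis, with a circle for the control library and a square for the knockout library. Id2 lies furthest right in both libraries, at 554 and 767 CPM, and the gap is widest for Grem1, which rests on 2 and 15 reads, followed by Bmp7, Id3 and Bmp4.

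Of the 10 genes, 6 were matched to promoter windows of RefSeq on build GRCm38.p6, which run from 250 bases before to 50 bases after the gene start: Bmp4, Bmpr2, Grem1, Id2, Id3 and Smad6. The windows of Id3, Smad6 and Bmp4 are shown because these genes were lower in the knockout, and that of Id2 because it belongs to the same family as Id3 and was not lower. Each reads 5′ to 3′ along its gene, and capitals mark every match to the motifs searched. The RefSeq start of Id3 lies inside the bounds that the deposited table gives for the gene, and the other 3 starts are those of the table.
Id3, chr4:136143572-136143871, plus strand: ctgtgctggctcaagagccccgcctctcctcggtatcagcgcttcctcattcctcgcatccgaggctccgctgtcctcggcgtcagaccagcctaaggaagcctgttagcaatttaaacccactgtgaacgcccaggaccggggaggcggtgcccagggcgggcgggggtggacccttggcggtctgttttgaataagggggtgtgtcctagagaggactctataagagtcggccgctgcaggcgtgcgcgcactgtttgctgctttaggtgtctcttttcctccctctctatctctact
Smad6, chr9:64022010-64022309, minus strand: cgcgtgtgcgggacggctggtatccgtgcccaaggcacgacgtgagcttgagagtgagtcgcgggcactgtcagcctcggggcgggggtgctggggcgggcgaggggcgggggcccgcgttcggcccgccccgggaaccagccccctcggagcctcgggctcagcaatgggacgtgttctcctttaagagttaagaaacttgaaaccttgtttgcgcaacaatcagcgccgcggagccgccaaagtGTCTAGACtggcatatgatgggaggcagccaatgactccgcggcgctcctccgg
Bmp4, chr14:46390620-46390919, minus strand: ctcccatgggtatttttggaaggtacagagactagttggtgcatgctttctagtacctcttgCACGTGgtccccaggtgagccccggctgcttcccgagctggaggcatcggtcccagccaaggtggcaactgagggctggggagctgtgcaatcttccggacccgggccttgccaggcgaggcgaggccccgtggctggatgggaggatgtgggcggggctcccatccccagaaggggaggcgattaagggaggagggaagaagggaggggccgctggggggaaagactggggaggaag
Id2, chr12:25096043-25096342, minus strand: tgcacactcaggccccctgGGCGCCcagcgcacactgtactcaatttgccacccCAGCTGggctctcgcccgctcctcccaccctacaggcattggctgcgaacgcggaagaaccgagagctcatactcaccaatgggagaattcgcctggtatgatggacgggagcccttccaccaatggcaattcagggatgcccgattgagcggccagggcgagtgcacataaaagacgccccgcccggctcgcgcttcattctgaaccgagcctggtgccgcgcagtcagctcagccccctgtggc
The motifs, read on both strands, were the GC-rich Smad1 and Smad5 element GGCGCC, the Smad3 and Smad4 box CAGACA, the E-boxes CACGTG and CAGCTG, and the forkhead cores GTAAACA and ATAAACA. The palindromic Smad box GTCTAGAC was added after the sequences had been read. Its first 4 and last 4 bases are the short Smad box on either strand, and no match overlapped another. The Smad6 window held GTCTAGAC from 4 bases before the gene start, a motif found in 0.213% of 32851 mouse promoter windows. Since this motif was picked with the sequences in view, that share does not measure how unusual the match is. The Id2 window held GGCGCC at 231 bases and CAGCTG at 196 bases before the start, and the Bmp4 window held CACGTG at 188 bases before it. GGCGCC also stood in the windows of Bmpr2 and Grem1, and was in 11.9% of all windows, CAGCTG in 16.3% and CACGTG in 7.15%. The Id3 window held none of these letters, and CAGACA (21.0% of all windows), GTAAACA (3.65%) and ATAAACA (4.60%) were in none of the 6. GC content ran from 59.3% in the Bmpr2 window to 70.7% in that of Grem1, above the median of all windows, 52.7%.

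Among the ligands, Bmp4 and Bmp7 were lower in the knockout and Bmp2 was not called. Bmp4, on chromosome 14 from 46383520 to 46390669 (GRCm38, minus strand), encodes a ligand that takes part in airway branching. It was represented by 292 control reads (16.2 CPM) and 55 knockout reads (4.06 CPM). Its log2 ratio was -1.99 (-2.44 to -1.58), a level 3.97-fold lower, and 402 of the 14455 measured genes had a lower ratio. Reads of Gm15217 and Gm15222, which overlap Bmp4 on the opposite strand, numbered 5 and 1 for the control and 2 and 0 for the knockout.

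Bmp7, on chromosome 2 from 172868012 to 172940321 (minus strand), encodes a ligand made by many epithelia and was represented by 41 control reads (2.28 CPM) and 5 knockout reads (0.369 CPM). The log2 ratio was -2.53, and the wide interval (-4.32 to -1.29) reflects the 5 reads. Bmp2, on chromosome 2 from 133552159 to 133562885 (plus strand), encodes the ligand closest to Bmp4 in sequence and was represented by 200 control reads (11.1 CPM) and 106 knockout reads (7.82 CPM). Its log2 ratio of -0.50 (-0.86 to -0.16) was short of the 2-fold rule.

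The balance of ligands differed between the libraries, a comparison that does not depend on how libraries are scaled. There were 0.685 reads of Bmp2 for each read of Bmp4 in the control (95% interval 0.569 to 0.823) and 1.93 in the knockout (1.38 to 2.72), a log2 ratio of ratios of 1.49 (0.93 to 2.06). Per length, Bmp4 stood above Bmp2 in the control, at 8.14 against 3.48 FPKM, and below it in the knockout, at 1.65 against 1.97 FPKM. Over the 10 genes of BMP ligands in the table the summed FPKM was 20.3 for the control library and 7.28 for the knockout. The size of this drop depends on the scale, since FPKM are not TMM-scaled. With FPKM plus 0.1 the median log2 ratio of all genes moved by -0.30. Bmp4 made up 40.1% of the summed FPKM in the control and 22.6% in the knockout, Bmp2 17.1% and 27.1%, and Bmp5 19.5% and 27.3%. These shares were not corrected for GC content. With the trend on GC content and transcript length removed, the log2 ratio of Bmp5 (40.5% GC) went from -0.68 to -1.32. That of Bmp4 (52.5% GC) went from -1.99 to -1.68. In reads the share of Bmp4 was 29.8% (Clopper-Pearson interval 26.9 to 32.7) and 15.5% (11.9 to 19.7), so the intervals did not overlap. The ratio of Bmp7 to Bmp4 reads did not differ beyond counting error, with a log2 ratio of ratios of -0.63 (-2.39 to 0.80).

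**Figure D2:**
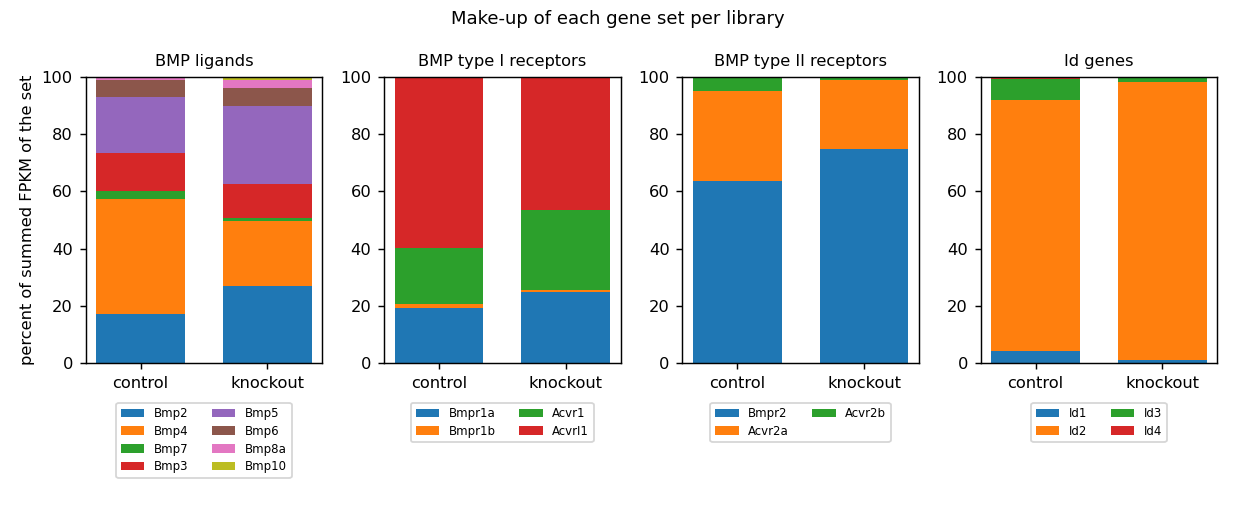
The share of each gene, in percent of the summed FPKM of its set, in the control and the knockout library, for BMP ligands, type I receptors, type II receptors and Id genes (genes under 0.5% in both libraries are not drawn). Bmp4 shrinks from 40.1% to 22.6% of the ligands, and Id2 grows from 87.6% to 97.4% of the Id genes.

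The receptor gene Bmpr2, on chromosome 1 from 59764279 to 59870549 (plus strand), was the 1 gene of the 10 called higher. It encodes a type II receptor selective for BMPs and was represented by 1209 control reads (67.1 CPM) and 2130 knockout reads (157 CPM), at a log2 ratio of 1.23 (1.12 to 1.33). The call depended on the reference level: the ratio was 0.91 with total reads alone and 0.44 after removal of the trend on GC content and transcript length, both short of 2-fold. Bmpr1a, the type I receptor whose transcript has nearly the same GC content (41.3% against 41.0%), with 639 and 554 reads, stood at 0.20 on the main scale (0.04 to 0.37). After removal of the same trend Bmpr1a was at -0.53, with no call. There were 1.89 Bmpr2 reads per Bmpr1a read in the control (1.72 to 2.09) and 3.84 in the knockout (3.50 to 4.23), a log2 ratio of ratios of 1.02 (0.83 to 1.22) that was 0.98 after the correction.

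Within the type II set Bmpr2 took 78.3% of reads in the control (76.1 to 80.3) and 85.3% in the knockout (83.8 to 86.6), the rest being those of the activin receptor genes Acvr2a and Acvr2b. Within the type I set the share of Acvrl1, a receptor of endothelial cells, was 53.0% (51.0 to 54.95) in the control and 40.1% (37.8 to 42.4) in the knockout, and Acvrl1 itself, on 1324 and 698 reads, was at a log2 ratio of -0.51 (-0.65 to -0.38) and was not called. With the GC and length correction Acvrl1 (56.6% GC) stood at 0.01. The shares of Bmpr1a, from 25.6% to 31.8%, and of Acvr1, from 19.7% to 27.2%, were higher in the knockout with intervals that did not overlap. These shifts within the type I set depended on the correction: the log2 ratio of ratios of Bmpr1a to Acvrl1 was 0.72 (0.50 to 0.93) in reads and turned to -0.54 after it, and that of Acvr1 to Acvrl1 went from 0.86 (0.63 to 1.09) to 0.24.

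Id proteins are helix-loop-helix factors that lack a DNA-binding region and hold E proteins off DNA, and their genes are among the most direct targets of BMP Smads. Id3 and Id1 fell and Id2 was not called. Id3, on chromosome 4 from 136143497 to 136145755 (plus strand), was represented by 1200 control reads (66.6 CPM) and 207 knockout reads (15.3 CPM), at a log2 ratio of -2.12 (-2.35 to -1.91) or 4.36-fold. Only 313 of the 14455 measured genes had a lower ratio. Id1, a single-exon gene in the annotation on chromosome 2 from 152736251 to 152737410 (plus strand), counted 441 control reads (24.5 CPM) and 98 knockout reads (7.23 CPM), at a log2 ratio of -1.76 (-2.09 to -1.44).

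Id2, on chromosome 12 from 25093801 to 25096092 (minus strand), is used by many blood cell types as well as by mesenchyme and was by far the most abundant of the family. It counted 9977 control reads (554 CPM) and 10404 knockout reads (767 CPM), at a log2 ratio of 0.47 (0.43 to 0.51). Per length Id2 stood at 487 FPKM in the control, beside 41.5 for Id3, 23.5 for Id1 and 3.59 for Id4. In the knockout the order was the same, at 542, 7.64, 5.59 and 0.997 FPKM.

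The summed FPKM of the 4 Id genes was 555 for the control and 556 for the knockout library, but this near equality depended on the scale, since their summed CPM was 650.4 and 792. The make-up of the FPKM sum differed. Id2 took 87.6% of it in the control and 97.4% in the knockout, Id3 7.47% and 1.38%, and Id1 4.24% and 1.00%. Set against Id2 within each library, the log2 ratio of ratios was -2.60 (-2.82 to -2.38) for Id3 and -2.23 (-2.56 to -1.91) for Id1. With the GC and length correction these became -1.75 and -1.45, smaller and outside those intervals. There were 0.368 Id1 reads per Id3 read in the control (0.329 to 0.410) and 0.473 in the knockout (0.368 to 0.605), a log2 ratio of ratios of 0.37 whose interval (-0.03 to 0.76) included 0 and reached well above it.

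The inhibitory Smads differed from each other. Smad6, on chromosome 9 from 63953076 to 64022059 (minus strand), acts mainly on BMP receptors and counted 155 control reads (8.61 CPM) and 30 knockout reads (2.21 CPM), at a log2 ratio of -1.94 (-2.57 to -1.39). Smad7, on chromosome 18 from 75367529 to 75395935 (plus strand), acts on TGF-beta as well as BMP receptors and counted 1089 control reads (60.5 CPM) and 552 knockout reads (40.7 CPM), at a log2 ratio of -0.57 (-0.72 to -0.42) that was not called. There were 0.142 Smad6 reads per Smad7 read in the control (0.120 to 0.169) and 0.0543 in the knockout (0.0363 to 0.0785), a log2 ratio of ratios of -1.39 (-2.02 to -0.80). Per length, Smad6 was 16.7% of the summed FPKM of the pair in the control and 7.17% in the knockout.

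Grem1, on chromosome 2 from 113746164 to 113758646 (minus strand), encodes gremlin, a secreted antagonist that binds Bmp2, Bmp4 and Bmp7. It counted 2 control reads (0.111 CPM) and 15 knockout reads (1.11 CPM), at a log2 ratio of 3.00 with an interval of 1.21 to 6.49, and its 17 reads in all fell short of the minimum of 20. There were 146 reads of Bmp4 for each of Grem1 in the control (40.1 to 1211) and 3.67 in the knockout (2.04 to 6.99), a log2 ratio of ratios of -5.32 (-8.50 to -3.13) that rests on these few Grem1 reads. Bmp4 thus exceeded Grem1 in both libraries, at 8.14 against 0.0299 FPKM in the control and 1.65 against 0.239 FPKM in the knockout.

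**Figure D3:**
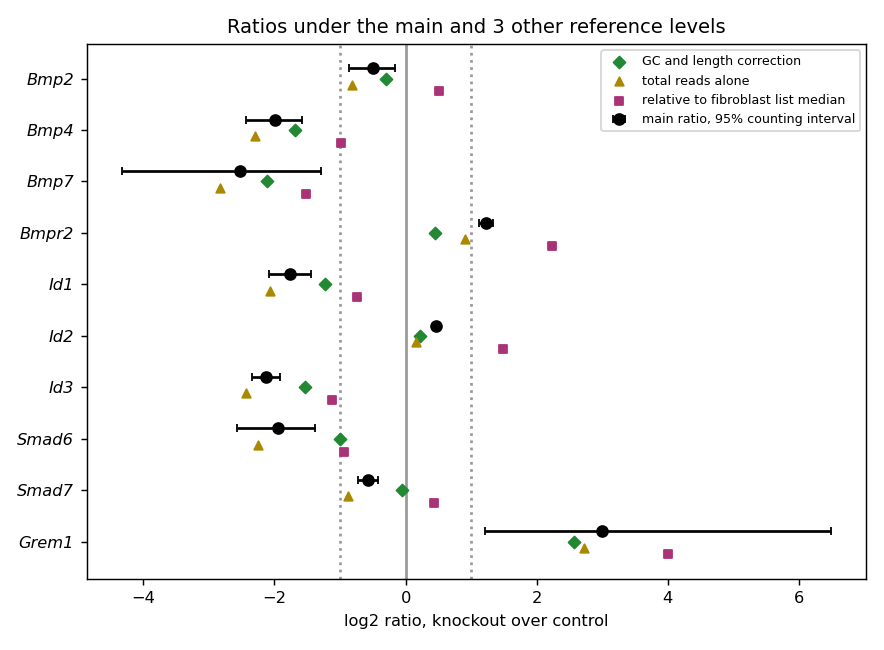
The log2 ratio of knockout over control for each of the 10 genes, as a black circle with its 95% counting interval, and the same ratio after removal of the GC and length trend (diamond), with total reads alone (triangle) and relative to the median of the fibroblast list (square); dotted lines mark 2-fold. Bmp4, Bmp7, Id1, Id3 and Smad6 lie left of 0 under all 4 reference levels, and Bmp2 and Smad7 cross 0 when set against the fibroblast list.

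Ratios over all genes moved with GC content, and the members are spread over its range. Among measured genes whose longest transcript had a GC content from 40 up to 45%, 3.75% were called lower, 19.4% higher and the median log2 ratio was 0.53. From 55 up to 60% GC, 27.2% were called lower, 2.09% higher and the median was -0.53, and from 60% GC 47.1% were lower and 1.08% higher with a median of -0.96. Bmpr2 (41.0% GC) and Id2 (45.1%) belong to the low side, Bmp2 and Bmp4 (each 52.5%) and Id1 (54.7%) lie between, and Bmp7 (55.3%), Id3 (55.6%), Smad7 (56.9%) and Smad6 (60.8%) to the high side. After the trend on GC content and length was subtracted, Bmp7 was at -2.11, Bmp4 at -1.68, Id3 at -1.53, Id1 at -1.23 and Smad6 at -1.01. All 5 were still called lower, beside 10.9% of 14289 genes, but Smad6, with a corrected interval of -1.64 to -0.45, was only just past 2-fold. Smad7 was then at -0.05, Bmp2 at -0.30, Id2 at 0.22 and Bmpr2 at 0.44, none of them called, beside 5.36% of genes called higher.

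**Figure D4:**
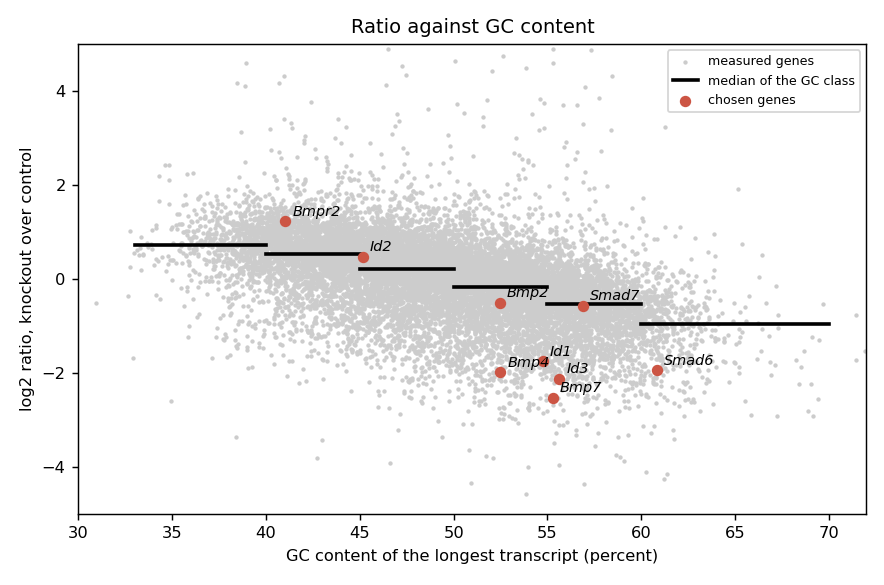
The log2 ratio of knockout over control against the GC content of the longest transcript for measured genes (grey; 43 points lie outside the plotted range), with the median of each GC class as a black line and the 9 measured BMP genes in red. Bmp4, Id1, Id3, Bmp7 and Smad6 lie below the median of their class, and Smad7, at -0.57, lies close to it.

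The fall of the 5 genes was set beside the cell type markers. The median log2 ratio was -1.01 for the fibroblast markers, -1.02 for the endothelial, -1.38 for the epithelial and -1.66 for the mesothelial, and 1.09 for the macrophage markers. It was -0.74 for the smooth muscle and pericyte markers, -0.61 for the lymphocyte, -1.31 for the erythroid and 0.81 for the neutrophil markers. Relative to the fibroblast median, Bmp7 at -1.52 and Id3 at -1.12 were called lower, Bmp4 at -0.98, Smad6 at -0.94 and Id1 at -0.75 were not, and Bmpr2 at 2.23 and Id2 at 1.48 were called higher, beside 2.42% of all measured genes lower and 50.7% higher. The part of cell type content in these ratios was not tested.

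Other rules for a call changed which of the 10 genes passed. Under a 4-fold rule Bmp7 and Id3 were lower and none was higher, beside 2.75% and 1.2% of measured genes. On the log2 scale of FPKM plus 1, Bmp4, Id1, Id3 and Smad6 were lower and none was higher, beside 12.3% and 2.42% of genes, and with FPKM plus 0.1 the same 4 were lower, beside 20.7% lower and 3.88% higher. With no filter on reads Grem1 joined Bmpr2 among the genes called higher, beside 7.26% of genes higher and 10.6% lower. The calls of the 10 genes were those of the main rule under a 1.5-fold rule, beside 23.5% of genes lower and 22.1% higher, and when the interval had to exclude 2-fold, beside 6.45% and 4.94%. Among genes of at least 5 CPM, where Bmp7 was not measured, Bmp4, Id1, Id3 and Smad6 were lower and Bmpr2 was higher, beside 11.4% and 8.96%.

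The remaining genes of the pathway, 84 on lists by role, held 58 measured genes, of which 18 (31.0%) were called lower and 3 (5.17%) higher, beside 14.2% and 9.37% of all measured genes, with a median log2 ratio of -0.45. After the GC and length trend was removed, 10 (17.2%) were lower and 3 (5.17%) higher, beside 10.9% and 5.36% of all genes. Their median log2 ratio was then -0.39, beside 0.04 over all genes. Among 7 other measured BMP and GDF ligands, Bmp3 (-1.35) and Bmp6 (-1.04) were lower and Gdf3 was higher at 1.35, on 22 and 43 reads. Bmp5 (-0.68) and Gdf15 (-0.38), the most abundant of the list, were not called. With the GC and length correction Bmp6 lost its call (-0.40), Bmp5 was called lower at -1.32, Bmp3 (-1.93) and Gdf3 (1.40) kept theirs, and Gdf15 turned to 0.70 with no call. Among 8 other measured receptors and coreceptors, Rgma, a coreceptor that binds BMPs, was lower at -2.65, from 78 to 9 reads. After the correction Rgma, at -1.75, and the type I receptor gene Bmpr1b, at -1.65 on 43 and 16 reads, were called lower.

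Antagonists and extracellular modulators of BMP were lower in 8 of 16 measured genes and higher in 1 (6.25%), beside 14.2% and 9.37% of all genes. Chordin (Chrd), which traps BMPs, fell from 52 to 9 reads, a log2 ratio of -2.07 (-3.33 to -1.09). Nbl1, another secreted BMP binder, of the DAN family to which gremlin belongs, fell from 1240 to 261 reads (-1.84), and the pseudoreceptor gene Bambi from 301 to 79 reads (-1.52). Kcp (-1.77, on 33 and 7 reads), Bmper (-1.40, on 36 and 10 reads) and Tll1 (-1.02, on 33 and 12 reads) were also lower. So were Bmp1 (-1.30) and Fstl3 (115 and 43 reads, just past 2-fold), and Tll2 was higher at 1.48 on 12 and 26 reads. Twsg1 (-0.04) and Fstl1 (-0.10), the most abundant modulators in CPM, were not called. With the GC and length correction Nbl1 at -0.79, Kcp at -0.81, Bmp1 at -0.87 and Fstl3 at -0.32 were no longer called. Chrdl1, on 119 and 59 reads, went from -0.60 with no call to -1.23 and was called lower. In all, 5 of the 16 (31.2%) were then lower, beside 10.9% of all genes.

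The other Smads and the Smad regulators were not called in either direction, 0 of 16 measured beside 23.6% of all genes, with a median of 0.26. None was called after the GC and length correction, and the median was then 0.08. Smad1 went from 506 to 363 reads (log2 ratio -0.07, -0.27 to 0.13), Smad5 from 741 to 574 (0.04, -0.12 to 0.20) and the shared partner Smad4 from 1126 to 1276 (0.59, 0.47 to 0.71). Smad2 was at 0.65 (0.52 to 0.79) and Smad3 at -0.68 (-0.85 to -0.51), and after the correction they were at 0.08 and -0.51. Skil (0.60), a repressor of Smad signalling, and Ywhae (0.41) were the most abundant of the list in CPM.

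The last list held other genes known as BMP targets in one tissue or another, together with the E protein genes Tcf3, Tcf4 and Tcf12. Of its 11 measured genes 7 (63.6%) were lower and 1 (9.09%) was higher, beside 14.2% and 9.37% of all genes. Id4, the remaining Id gene, fell from 96 to 25 reads (-1.52, -2.23 to -0.88). Gata2 (-1.64), Msx1 (-1.51, on 20 and 5 reads), Atoh8 (-1.45, on 30 and 8 reads), Hey1 (-1.07), Hes1 (-1.04) and the E protein gene Tcf3 (-1.02) were lower. Hamp, the gene of hepcidin, a BMP target of the liver, was higher at 1.44 on 27 and 56 reads. Hey1 and Hes1 are also targets of Notch. After the GC and length correction Id4, at -2.05, was the 1 gene of these 11 (9.09%) still called lower, near the 10.9% of all genes. The median log2 ratio of the 11 went from -1.04 to -0.76, beside 0.04 over all genes after the correction. Of the 11 ratios 9 were then below 0 and 2 above. Hamp, at 1.75, was still called higher.

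**Figure D5:**
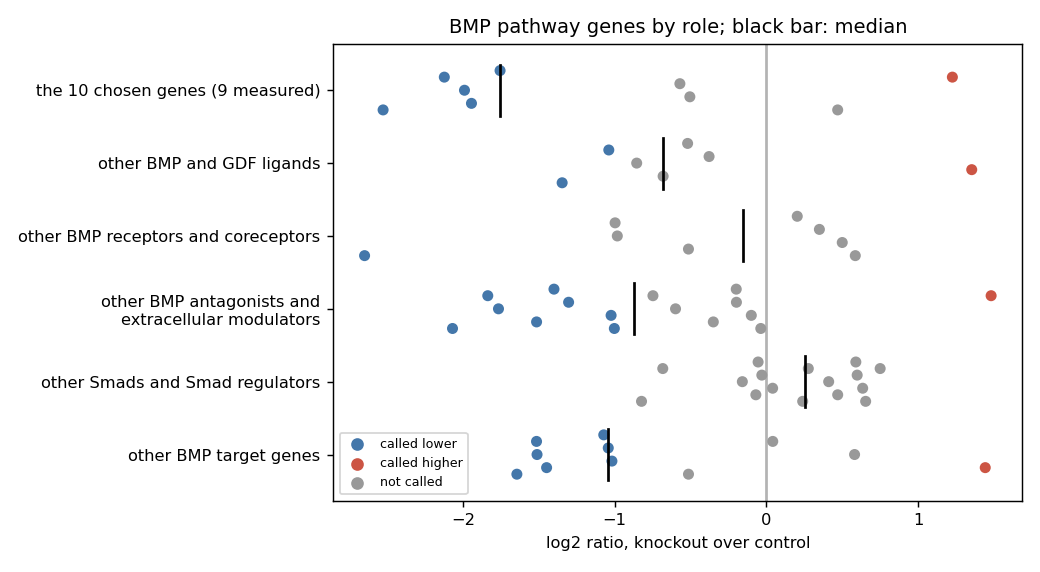
The log2 ratio of knockout over control for each measured BMP pathway gene, in rows by role, with genes called lower in blue, higher in red and not called in grey, and a black bar at the median of the row. The row of Smads and Smad regulators holds no call and has a median of 0.26. The row of target genes, which includes the E protein genes, has a median of -1.04, and that of antagonists -0.87.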

How the data were processed

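RNA from lung cells isolated as fibroblasts was sequenced from 1 control and 1 knockout library (Nextera XT, which keeps no strand, per the labels' protocols). The authors deposited, for each gene and library, estimated counts of reads and FPKM, per the file headers. TopHat and Cufflinks, GRCm38 and mm10 are named in the submitters' processing notes without roles or versions. Estimated counts were rounded; of genes with reads, 74.2% (control) and 71.1% (knockout) lay more than 0.001 from a whole number.

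Libraries were scaled with TMM (edgeR 4.0.16, R 4.3.3), fitted on the whole table. Log2 ratios used a prior count of 0.5, and intervals of ratios were exact conditional binomial (Clopper-Pearson) 95% intervals (scipy 1.17.1). Ratios of ratios have the exact conditional interval of an odds ratio. Since PCR copies cannot be told from separate molecules, intervals cover counting error only, and the spread between animals is unknown. The GC and length correction removed lowess trends with statsmodels 0.14.6 at a span of 0.3, taken from the longest GENCODE transcript per gene; 98.9% of measured genes had one. The calculations were tested on simulated data.

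The genes, gene lists and motifs were chosen with earlier results of these data known. Of each list of other pathway genes, those called and the 2 of highest mean CPM are named, and of each cell type list the most abundant marker where one is named. Smad1, Smad2, Smad3, Smad4, Smad5, Acvr1, Acvr2a, Acvr2b, Nog and, for their corrected calls, Bmpr1b and Chrdl1 are also named, chosen with their values in view. Alternatives were total reads, DESeq2 1.42.0 size factors, the log2 of deposited FPKM with 1 or 0.1 added in genes of at least 1 FPKM, a prior count of 2, ratios relative to the fibroblast list, other count filters, and other fold rules. The GC and length correction of pairs of genes was added after the data were seen.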

Additional observations from a re-analysis of the deposited data

How the results depend on the processing

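All 10 genes kept the direction of their ratio with total reads alone, DESeq2 size factors, both FPKM scales, the GC and length correction and a prior count of 2. Relative to the fibroblast list Bmp2 (0.50) and Smad7 (0.44) turned. Total reads alone moved the median of all genes by -0.33, FPKM plus 1 by -0.25, FPKM plus 0.1 by -0.30 and the fibroblast reference by 1.01. Of the 10 genes, 5 were called lower in the main analysis, 2 relative to the fibroblast list and 2 under a 4-fold rule. Called higher were 1 in the main analysis, 0 with total reads, FPKM plus 1, FPKM plus 0.1, the GC and length correction or a 4-fold rule, and 2 relative to the fibroblast list (Bmpr2, Id2) or with no filter on reads (Bmpr2, Grem1). Bmp7 and Grem1 lie under the minimum of 1 FPKM and were not measured on the FPKM scales. Of the other pathway genes, 18 of 58 were lower in the main analysis (31.0%, beside 14.2% of all genes). Under a 1.5-fold rule 26 of 58 were lower (44.8%, beside 23.5%), and with total reads alone 24 of 60 (40.0%, beside 22.1%). With FPKM plus 1 there were 11 of 47 (23.4%, beside 12.3%). With the GC and length correction 10 of 58 were lower (17.2%, beside 10.9%), and among genes of at least 5 CPM 10 of 43 (23.3%, beside 11.4%). When the interval had to exclude 2-fold, 6 of 58 were lower (10.3%, beside 6.45%). Relative to the fibroblast list or under a 4-fold rule 2 of 58 were lower (3.45%), beside 2.42% and 2.75% of all genes. Higher were 3 of 58 in the main analysis (5.17%, beside 9.37% of all genes) and 1 of 47 with FPKM plus 0.1 (2.13%, beside 3.88%). None was higher with FPKM plus 1, at 5 CPM, under a 4-fold rule or when the interval had to exclude 2-fold. Of all genes 2.42%, 8.96%, 1.2% and 4.94% were then higher, in that order. Under a 1.5-fold rule 9 of 58 were higher (15.5%, beside 22.1% of all genes), and relative to the fibroblast list 19 of 58 (32.8%, beside 50.7%). Ratios between pairs of genes are nearly the same in FPKM by construction, since gene length and library total cancel. With the GC and length correction, chosen for pairs after seeing the data, the log2 ratio of ratios of Bmpr1a to Acvrl1 turned to -0.54, and those of Id3 to Id2 (-1.75), Id1 to Id2 (-1.45) and Acvr1 to Acvrl1 (0.24) left their intervals, while the other 6 pairs stayed within theirs. The cause of these moves was not tested. No paired analysis was possible because each genotype has 1 library. Calls on few reads, such as those of Bmp7, Grem1, Msx1, Tll2, Gdf3, Kcp, Atoh8, Bmper, Tll1 and Chrd, are limited by depth.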

Other observations

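The E proteins, which Id proteins bind and hold off DNA, did not share one direction. Tcf3, on 867 control reads and 322 knockout reads, had a log2 ratio of -1.02 (95% interval -1.21 to -0.83) and was called lower, Tcf4 was at 0.04 (-0.12 to 0.20) on 738 and 572 reads, and Tcf12 was at 0.58 (0.46 to 0.70) on 1113 and 1254 reads. Their transcripts differed in GC content, at 61.0% for Tcf3, 40.9% for Tcf4 and 44.4% for Tcf12, and after the GC and length correction the ratios were -0.06, -0.76 and 0.00, with no call.

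The tolloid proteases, some of which free BMPs from chordin, also differed. Bmp1, which in spite of its name is a protease and no BMP ligand, had 460 and 140 reads and a ratio of -1.30 (-1.59 to -1.03), Tll1 had 33 and 12 reads (-1.02, -2.14 to -0.06), and Tll2 had 12 and 26 reads (1.48, 0.49 to 2.65). Noggin (Nog), another BMP trap, had 3 control reads and 2 knockout reads and was not measured.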
